A study of Mus musculus with 5 samples.

Results

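The genes described are 8 mouse genes for sensors of double-stranded RNA and for the proteins that act beside them: *Ddx58*, *Ifih1*, *Dhx58*, *Tlr3*, *Eif2ak2*, *Mavs*, *Zbp1* and *Adar*. They were chosen by name as genes whose products transfected siRNA could meet, without use of any measured value, and are 8 of the 55487 genes in the counts table. All 8 had reads in every library and all 8 passed the filter on low counts. The cells were HT22, a mouse line derived from hippocampus, and poly(A) RNA was sequenced 48 h after transfection with 10 nM of siRNA by INTERFERin reagent. The KD group held GAS5 siRNA_210 (1 library) and GAS5 siRNA_596 (2 libraries), and the NC group held NC siRNA (2 libraries). The treatment labels call the NC samples untreated, whereas their titles give only NC and the study's methods describe NC siRNA. The sources used here do not settle this conflict, and the methods were followed. Both groups are thus taken to have carried siRNA and transfection reagent, with no library of cells without siRNA. On that reading the comparison of KD with NC shows how the sensors differed between siRNAs. It then cannot show their response to siRNA as such. The sources used here do not say whether replicates were separate cultures, so *P*-values measure only the spread between these libraries.

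RNA with long paired stretches is rare in a healthy cytoplasm and abundant during many virus infections, and mammalian cells read it as a danger signal. RIG-I (*Ddx58*) and MDA5 (*Ifih1*) are helicases that bind it in the cytoplasm and signal through MAVS on mitochondria, while TLR3 reads it in endosomes. The outcome is the production of type I interferon, which in turn raises the transcription of several of the sensors themselves. PKR (*Eif2ak2*) is a kinase that, once bound to such RNA, phosphorylates eIF2alpha and halts translation, ADAR edits adenosine to inosine within the RNA, and ZBP1 binds nucleic acid in the Z form and can start cell death. Short siRNA duplexes are a known, if weaker, ligand of some of these proteins.

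The total counts ran from 30660265 to 36492134 per library. *Gas5*, the target of the KD siRNAs, had 3178 and 2916 counts in NC replicates 1 and 2, 2134 with siRNA_210 and 2357 in siRNA_596 replicate 1, and 4727 in the library labelled siRNA_596 replicate 2. That library goes against its label and stood apart from the other 4, with 23.2% of 16142 genes over 2-fold below their mean and 16.9% over 2-fold above it. The other 4 libraries are therefore the basis of the comparison, and the values from all 5 stand beside those of the sensors. In these 4 the KD group held 1 library of each siRNA. Its spread thus mixes the difference between siRNAs with that between libraries. The labels call the cells hippocampal neuronal. Of 12 neuron markers, *Snap25*, *Nefl* and *Nefm* were at 0 in every library and *Rbfox3* had at most 2 counts, whereas *Map2* had 833 to 3336 counts and *Tubb3* 497 to 970. Of 7 markers of microglia and macrophages, cells that carry many of these sensors, *Ptprc* and *Itgam* were at 0 and *Tmem119* had 796 to 1111 counts, and the list summed to between 23.8 and 44.2 CPM (CPM, counts scaled to library size by the TMM method of edgeR).

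Promoter sequences were taken from RefSeq (GRCm38.p6), 250 bases before to 50 bases after a start site, and 6 of the 8 genes matched, with 8 windows between them. No entry was matched for *Dhx58* and *Zbp1*. They are shown because the interferon-stimulated response element, to which interferon-activated factors bind, is one known route by which these genes are raised together. It was searched on both strands as GAAANNGAAA, and, after the sequences had been seen, with 1 base fewer between the repeats as GAAANGAAA. In *Ddx58*, which has both, the matches do not overlap. Capitals mark the matches to either motif, and each sequence runs 5′ to 3′ on the strand of the gene. The windows are *Ifih1* at chr2:62646206-62646505 (minus strand), *Ddx58* at chr4:40239776-40240075 (minus strand), *Eif2ak2* at chr17:78882523-78882822 (minus strand), the third of the *Adar* windows at chr3:89730468-89730767 (plus strand) and *Mavs* at chr2:131233813-131234112 (plus strand).
Ifih1: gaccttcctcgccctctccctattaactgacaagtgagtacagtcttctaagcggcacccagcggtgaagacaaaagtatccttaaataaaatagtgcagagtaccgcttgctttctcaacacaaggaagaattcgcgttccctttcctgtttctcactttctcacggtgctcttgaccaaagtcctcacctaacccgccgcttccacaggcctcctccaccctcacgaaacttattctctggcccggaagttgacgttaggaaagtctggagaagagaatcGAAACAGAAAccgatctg
Ddx58: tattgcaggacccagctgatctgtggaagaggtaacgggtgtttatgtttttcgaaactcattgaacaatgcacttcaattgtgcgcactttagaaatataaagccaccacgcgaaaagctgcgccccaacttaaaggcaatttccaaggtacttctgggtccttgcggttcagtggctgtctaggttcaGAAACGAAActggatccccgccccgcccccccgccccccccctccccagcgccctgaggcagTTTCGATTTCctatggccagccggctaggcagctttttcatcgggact
Eif2ak2: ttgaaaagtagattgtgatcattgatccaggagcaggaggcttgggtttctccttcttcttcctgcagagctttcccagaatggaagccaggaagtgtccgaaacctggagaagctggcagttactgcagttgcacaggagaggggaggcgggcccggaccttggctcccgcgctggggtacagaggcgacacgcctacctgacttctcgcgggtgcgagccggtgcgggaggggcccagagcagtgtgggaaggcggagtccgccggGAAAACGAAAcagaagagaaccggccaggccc
Adar: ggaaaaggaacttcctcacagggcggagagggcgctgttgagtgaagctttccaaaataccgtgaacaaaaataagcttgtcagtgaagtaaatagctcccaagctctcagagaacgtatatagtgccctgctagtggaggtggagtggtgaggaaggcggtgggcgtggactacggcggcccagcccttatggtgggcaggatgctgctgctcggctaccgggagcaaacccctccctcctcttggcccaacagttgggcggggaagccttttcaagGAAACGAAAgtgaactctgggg
Mavs: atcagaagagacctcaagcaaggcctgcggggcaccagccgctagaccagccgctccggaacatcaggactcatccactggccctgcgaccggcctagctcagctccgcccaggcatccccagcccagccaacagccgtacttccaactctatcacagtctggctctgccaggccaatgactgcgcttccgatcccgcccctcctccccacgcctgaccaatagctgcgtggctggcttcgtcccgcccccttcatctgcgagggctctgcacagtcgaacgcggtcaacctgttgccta

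The form with 2 free bases was in the windows of 3 genes, *Ifih1*, *Ddx58* and *Eif2ak2*, starting 32, 2 and 18 bases after the start site, and in 3.44% of all 32851 windows of this length. The form with 1 free base was in the windows of 2 genes, *Ddx58*, 60 bases before the start site, and *Adar*, 28 bases after the start site shown, and in 3.17% of all windows. Neither form was found in the windows of *Mavs* and *Tlr3* or in the other 2 windows of *Adar*. The *Tlr3* window, at chr8:45410331-45410630 (minus strand), lies inside the annotated gene, whose outermost start is at 45411080. Bases before that start were not searched. The last 50 bases of the *Adar* window with the match were found in 0 annotated transcripts, whereas those of its other windows were found in 2 and 1. A match describes the letters of the window and is no evidence that a factor binds there.

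In GRCm38 the genes lie at chr4:40203773-40239828 (*Ddx58*), chr2:62595798-62646255 (*Ifih1*), chr11:100694884-100704271 (*Dhx58*), chr8:45395665-45411080 (*Tlr3*), chr17:78852564-78882573 (*Eif2ak2*), chr2:131234063-131248025 (*Mavs*), chr2:173206612-173218923 (*Zbp1*) and chr3:89715022-89753446 (*Adar*). All 8 are protein-coding, with *Mavs* and *Adar* on the plus strand and the rest on the minus strand. Exons of *Ddx58*, *Ifih1*, *Mavs* and *Zbp1* overlap no other annotated exon. Genes on the opposite strand cover 4.31% of the exon bases of *Dhx58*, 7.32% of *Tlr3*, 4.32% of *Eif2ak2* and 16.8% of *Adar*, and their reads cannot be told apart without strand.

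The sensors differed widely in level, and *Eif2ak2* was first, *Mavs* next and *Zbp1* last in each of the 4 libraries. Levels between genes are compared as CPM per kilobase of exon, which takes out gene length. *Eif2ak2* was the highest, with 19.8 and 24.7 CPM per kilobase in NC replicates 1 and 2, 19.3 with siRNA_210 and 21.8 and 8.46 in the siRNA_596 pair. Pairs are given as replicate 1 and then replicate 2 throughout, so that the last value is that of the library that stood apart. *Mavs*, the common adaptor of the helicases, followed with 14.0 and 14.9 for the NC pair, 14.6 for siRNA_210 and 14.1 and 11.6 for the siRNA_596 pair. *Zbp1* was the lowest, with 0.612 and 0.989, then 0.443, then 0.324 and 0.976. The PKR gene thus stood above every other sensor in 4 libraries and below *Mavs* in the library that stood apart.

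The helicases fell on both sides of the middle. The NC means were 9.29 ± 2.43 CPM per kilobase for *Ddx58*, 8.43 ± 1.4 for *Adar*, 3.30 ± 1.06 for *Dhx58*, 3.01 ± 0.0734 for *Tlr3* and 2.96 ± 1.62 for *Ifih1* (SD, n = 2). Over the 4 libraries the ranges of *Ddx58* and *Adar* overlapped, and so did those of *Dhx58* and *Tlr3* and of *Tlr3* and *Ifih1*, so the order within these sets was not set apart from the spread. The other steps of the order did not overlap. Among the 15867 genes tested with 4 libraries, the NC level of *Eif2ak2* was at percentile 84.1, that of *Mavs* at 75.3 and that of *Zbp1* at 23.8, with the rest between 40.8 and 65.1. With the longest annotated transcript in place of the union of exons, *Ddx58* came to 16.9 CPM per kilobase, above *Mavs* at 15.8, and *Ifih1* to 4.42, above *Tlr3* at 3.56.

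**Figure D1:**
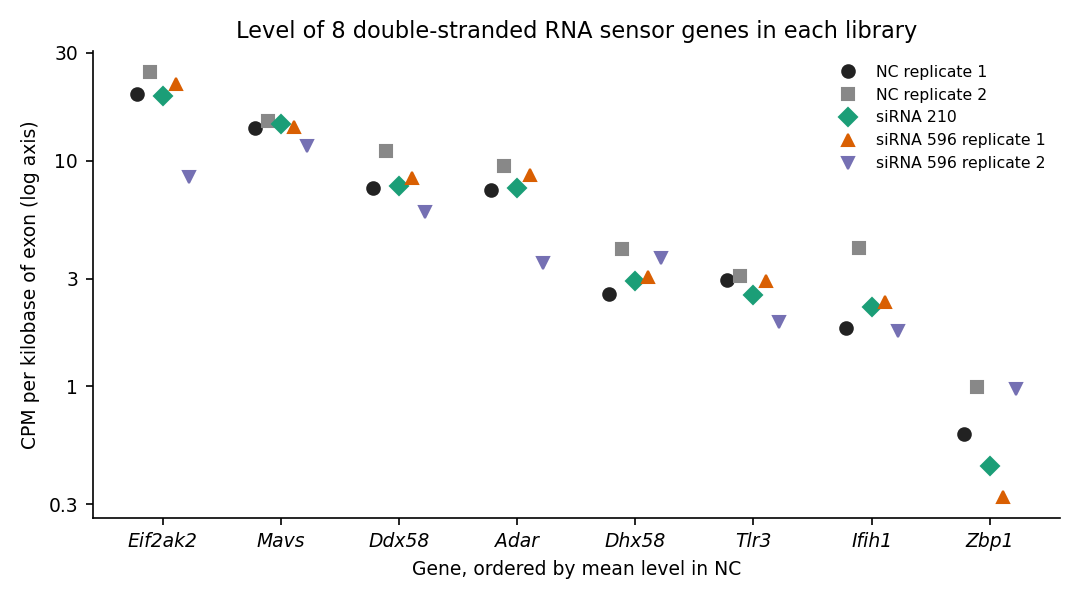
Each point is the level of a gene in 1 library, in CPM per kilobase of exon on a log axis, with the 8 genes in the order of their NC mean. *Eif2ak2* lies at 19.3 to 24.7 in 4 libraries and *Zbp1* at 0.324 to 0.989, and the downward triangles of siRNA_596 replicate 2 lie below the other 4 points for 6 of the 8 genes.

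No sensor rose in the KD group, and 1 of the 8, *Zbp1*, was lower by the study's criteria, an unadjusted *P* under 0.05 and an absolute log2 fold change over 1. With 4 libraries these criteria were met by 0.876% of the 15867 genes tested by the quasi-likelihood method of edgeR, 0.366% higher and 0.51% lower in KD. No gene had an adjusted *P* under 0.05 in edgeR, where 523 genes had an unadjusted *P* under 0.05, the unadjusted share being 3.3%. DESeq2 on the same 4 libraries put 0.422% of genes past the criteria and 2.32% (368 genes) under an unadjusted *P* of 0.05, and 1 gene (0.0063%) had an adjusted *P* under 0.05. With all 5 libraries 0.353% of 16142 genes met the criteria and 0.372% had an unadjusted *P* under 0.05, and 0 of the 8 sensors did either. In bulk RNA, fewer cells with a transcript and less of it per cell cannot be told apart.

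*Zbp1* was read 76 and 134 times in the NC pair, 56 times under siRNA_210 and 41 and 91 times in the siRNA_596 pair. In CPM this was 2.16 and 3.49 against 1.56, 1.14 and 3.44. The first 2 KD libraries lay below both NC libraries, at 55.4% and 40.5% of the NC mean, and the last lay between the NC libraries, at 122% of their mean. With 4 libraries the log2 fold change of *Zbp1* was -1.06 (standard error 0.36, 95% interval -1.88 to -0.24), with an unadjusted *P* = 0.0167 and an adjusted *P* = 0.967 in edgeR. With all 5 it was -0.47 (standard error 0.58, interval -1.88 to 0.95, adjusted *P* = 0.963). It was -0.67 when NC replicate 2 was left out of the 4 and -0.86 when siRNA_596 replicate 1 was, and neither met the criteria.

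The cytoplasmic helicases did not pass the test in either fit. *Ifih1* had 521 counts in NC replicate 1, 1286 in NC replicate 2, 657 with siRNA_210 and 693 and 381 in the siRNA_596 pair. NC replicate 2 was thus the high library. The first 2 KD libraries, at 18.4 and 19.4 CPM, lay between the NC libraries, at 14.8 and 33.5 CPM, and the last lay below both at 14.4 CPM. The log2 fold change of *Ifih1* was -0.36 with 4 libraries (standard error 0.30, 95% interval -1.03 to 0.31, adjusted *P* = 0.967 in edgeR) and -0.47 with all 5.

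Counts of *Ddx58* were 1879 and 2979 for the NC pair, 1945 for siRNA_210 and 2121 and 1106 for the siRNA_596 pair. It stood at 53.4 and 77.6 CPM in NC against 54.3 with siRNA_210, 59.2 in siRNA_596 replicate 1 and 41.9 in the library that stood apart. With 4 libraries the groups overlapped, since both KD libraries fell between the NC libraries, and the log2 fold change was -0.21 (standard error 0.16, interval -0.56 to 0.14, adjusted *P* = 0.967 in edgeR). From all 5 libraries the value for *Ddx58* was -0.34 (standard error 0.27). *Dhx58*, which encodes LGP2, a helicase without the signalling domains of the other helicases that modulates their activity, was read 294 and 509 times in the NC pair, 343 times under siRNA_210 and 358 and 320 times in the siRNA_596 pair. For *Dhx58* both KD libraries of the 4 fell between the NC libraries. The log2 difference was -0.15 from 4 libraries (interval -0.64 to 0.35) and -0.033 from all 5.

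Reads of *Tlr3* numbered 543 and 613 in the NC pair, 472 under siRNA_210 and 544 and 265 in the siRNA_596 pair, or 15.4 and 16.0 CPM against 13.2, 15.2 and 10.0. Its KD libraries lay below both NC libraries with 4 and with 5 libraries, by a margin of 15.2 against 15.4 CPM at the nearest. Over all genes 16.2% were lower and 16.7% higher without overlap with 4 libraries, and 9.48% were lower with 5, so 2 of 8 sensors (*Tlr3* and *Zbp1*) and 1 of 8 (*Tlr3*) stand against those shares. The log2 fold change of *Tlr3* was -0.15 with 4 libraries (standard error 0.14, interval -0.47 to 0.17, adjusted *P* = 0.969 in edgeR) and -0.29 with all 5.

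*Mavs* was the steadiest member, with 46.8 and 49.9 CPM in NC, 48.8 with siRNA_210 and 47.0 and 38.7 in the siRNA_596 pair. Its log2 fold change with 4 libraries was -0.014 (standard error 0.095), and the 95% interval of -0.23 to 0.20 covers levels from 0.853 to 1.15 times those of NC. From all 5 it was -0.11 (interval -0.64 to 0.42). Counts of *Eif2ak2* were 3565 and 4849 for the NC pair, 3534 for siRNA_210 and 3993 and 1143 for the siRNA_596 pair. Those of *Adar* were 2127 and 2937, then 2209, then 2505 and 757. With 4 libraries both genes overlapped between the groups, with log2 fold changes of -0.12 for *Eif2ak2* (interval -0.38 to 0.14) and -0.059 for *Adar* (interval -0.34 to 0.22). These intervals leave room for changes of up to 1.11-fold upward and down to 0.77 of the NC level for *Eif2ak2*, and up to 1.16-fold and down to 0.792 for *Adar*. From all 5 libraries the values were -0.43 for *Eif2ak2* (standard error 0.42) and -0.36 for *Adar* (standard error 0.41). The partner of *Adar* on the opposite strand is *Chrnb2*.

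**Figure D2:**
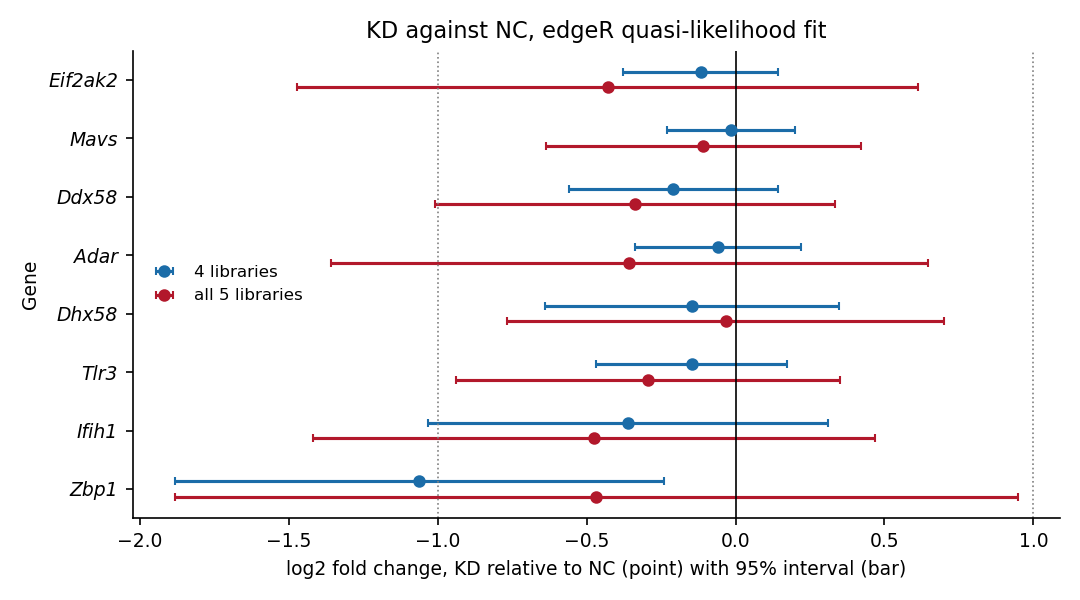
Points are log2 fold changes of KD relative to NC for each gene and bars their 95% intervals, from the fit of 4 libraries in blue and of all 5 in red, with dotted lines at -1 and 1. With 4 libraries only the interval of *Zbp1* (-1.88 to -0.24) lies wholly below 0, and with all 5 every interval crosses 0.

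All 8 log2 fold changes were below 0 with 4 libraries and with all 5, where 50.5% and 49.0% of all genes tested were below 0. The median of the 8 was -0.15 with 4 libraries, beside -0.0023 for all genes tested, and -0.35 with all 5, beside 0.011. From 4 libraries this shared direction rested on NC replicate 2. Without it, 6 of the 8 were above 0, with a median of 0.072, beside 0.0035 for all genes tested. *Ifih1* turned from -0.36 to 0.35. *Tlr3* and *Zbp1* were the 2 that stayed below 0. Without NC replicate 1 all 8 were below 0, with a median of -0.35, beside 0.0069 for all genes tested. Each of these fits leaves 1 NC library, so only log2 fold changes are given here. No fit of all 5 left out NC replicate 2. There the mean CPM of the 3 KD libraries lay above NC replicate 1 for *Ifih1* (17.4 against 14.8) and *Dhx58* (10.6 against 8.35), and below it for the other 6. That mean includes the library that stood apart, which was the lowest of the 5 for 6 of the 8 sensors and for 43.6% of all genes. The share of all genes with such a mean was not counted. The library sizes, TMM factors and DESeq2 size factors each left all 8 below 0 with 4 libraries.

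The NC libraries differed from each other in the same genes. Relative to NC replicate 1, NC replicate 2 held 2.26 times as much *Ifih1*, 1.62 times as much *Zbp1*, 1.59 times as much *Dhx58* and 1.45 times as much *Ddx58*. The ratio was 1.27 for *Adar*, 1.25 for *Eif2ak2*, 1.07 for *Mavs* and 1.04 for *Tlr3*. A ratio over 1.5, a limit set after the values were seen, was reached by 3 of the 8 sensors and by 7.92% of all genes tested. For all 8 sensors NC replicate 2 was the highest of the 4 libraries, as it was for 32.6% of all genes. The other 3 libraries lay within 1.31-fold of each other for each sensor except *Zbp1*, where the range was 1.89-fold. Each NC replicate is 1 library, so this difference has no replicate check and no test.

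Beside the promoter windows, the genes with GAAANNGAAA had ratios of 2.26 (*Ifih1*), 1.45 (*Ddx58*) and 1.25 (*Eif2ak2*) between the NC libraries. The genes whose windows held neither motif, *Mavs* and *Tlr3*, had 1.07 and 1.04, and *Adar*, with GAAANGAAA in the window that no annotated transcript matched, had 1.27. *Dhx58* and *Zbp1*, for which no window was matched, had 1.59 and 1.62. The 6 genes with a window, in 1 pair of libraries, are given as a description, and a link between motif and ratio was not tested. Summed levels of the microglia and macrophage markers were 23.8 and 23.9 CPM in NC replicates 1 and 2, of which *Tmem119* made up 22.6 and 22.5 CPM. The other tested markers of this list went in opposite directions. *Csf1r*, with 18 and 47 counts, had a ratio of 2.39, and *Aif1*, with 16 and 8 counts, had 0.458. The 5 astrocyte markers summed to 31.8 and 50.7 CPM, mostly *Slc1a3* with a ratio of 1.62, and *Aqp4* was at 0 in both. *Gfap*, with 20 and 11 counts, had a ratio of 0.504, and *S100b*, with 8 and 15 counts, had 1.72. The 5 fibroblast markers summed to 4660 and 5047 CPM. Of the 4 tested, *Col1a2* had a ratio of 1.66, *Col1a1* 0.983 and *Pdgfra* 0.722. *Dcn*, named after its values were seen, had 16 and 0 counts. The 12 neuron markers summed to 99.6 and 106 CPM. The part of these markers in the sensors' values was not tested.

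**Figure D3:**
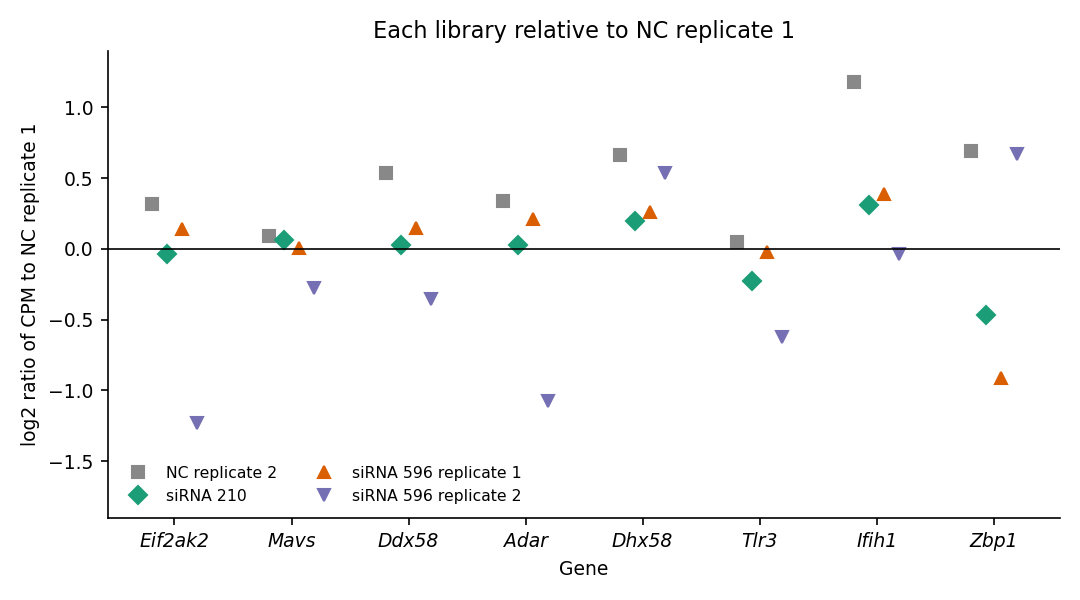
Each point is the log2 ratio of a gene's CPM in 1 library to its CPM in NC replicate 1, which is the line at 0. The squares of NC replicate 2 lie above 0 for all 8 genes, from 0.050 for *Tlr3* to 1.18 for *Ifih1*, while siRNA_210 lies between -0.47 (*Zbp1*) and 0.31 (*Ifih1*).

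In the library labelled siRNA_596 replicate 2, *Eif2ak2* stood at 0.395 and *Adar* at 0.427 of the mean of the other 4 libraries. *Ifih1*, *Tlr3*, *Ddx58* and *Mavs* were at 0.671, 0.671, 0.685 and 0.804 of it, whereas *Dhx58* was at 1.18 and *Zbp1* at 1.65 times it. It was thus the lowest of the 5 libraries for 6 of the 8 sensors and for 43.6% of all genes, and over 2-fold below the mean of the others for 2 of the 8 and for 23.2% of all genes. Longer transcripts had lower ratios in this library (Spearman rho -0.483 for 15528 genes, no replicates of each other). The longest annotated transcripts of the sensors ran from 2412 bases (*Dhx58*) to 5909 bases (*Adar*), with a median of 4094, against a median of 2981 for all genes tested. With offsets for length and GC content in the fit of all 5 libraries, the median of the 8 log2 fold changes went from -0.35 to -0.18. That of all genes went up too, from 0.011 to 0.086. *Dhx58* went lower, from -0.033 to -0.14, as did *Mavs*, from -0.11 to -0.16, and the other sensors went higher.

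**Figure D4:**
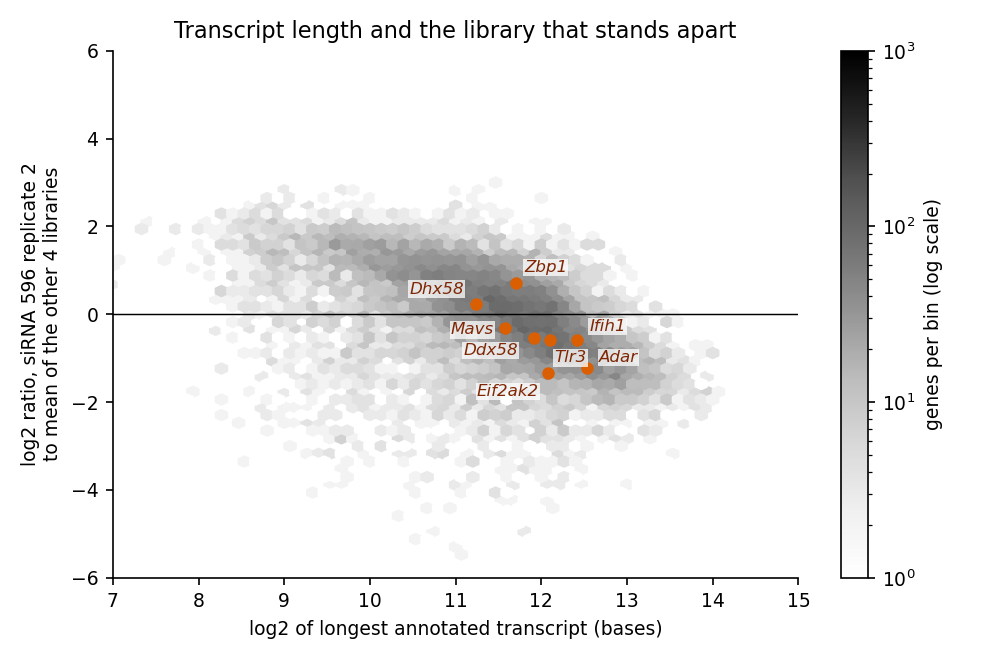
Shading gives the number of genes by log2 of the longest annotated transcript and by log2 ratio of siRNA_596 replicate 2 to the mean of the other 4 libraries, and orange points are the 8 sensor genes. Across all genes longer ones lie lower. Among the sensors *Zbp1* (3325 bases) is the highest at 0.72, *Dhx58* (2412 bases) lies at 0.23 and *Mavs* (3057 bases) at -0.31. *Ddx58* (3874 bases) lies at -0.55, *Tlr3* (4407 bases) at -0.57 and *Ifih1* (5470 bases) at -0.58. *Adar* (5909 bases) lies at -1.23 and *Eif2ak2* (4313 bases) at -1.34, so the order of the sensors is not that of their lengths.

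The values under each siRNA are set side by side. With siRNA_210 *Ifih1* stood at 76.0% of the NC mean and with siRNA_596 replicate 1 at 80.1%, *Ddx58* at 83.0% and 90.5%, and *Eif2ak2* at 86.7% and 98.0%. *Mavs* stood at 101% and 97.3% and *Adar* at 90.1% and 102%. Both siRNAs are compared with the same NC libraries, siRNA_210 has 1 library, and the difference between siRNAs was not tested.

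The rest of the pathway was described from 7 lists with 83 genes, of which 72 were tested with 4 libraries. The criteria were met by 1 of the 72, *Oas2*, which was lower, where 0.876% of all genes tested met them. With all 5 libraries 0 of 72 did, where 0.353% of all genes did. The medians of the lists from all 5 libraries were -0.25 for the other binders, -0.13 for the other sensors and -0.062 for signalling downstream. They were -0.12 for the inhibitors and 0.11 for the PKR list, which holds its target, its partner kinases and other genes. The remaining medians were -0.15 for the interferons and their targets and -0.084 for the interferon receptors. Those of the PKR list and of the receptors thus had the opposite sign to the values from 4 libraries given with each list. An unadjusted *P* under 0.05 was found for 5 of the 72 with 4 libraries, where 3.3% of all genes had one, and no adjusted *P* was under 0.05.

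Among the 18 other genes for proteins that bind double-stranded RNA, 17 were tested and their median log2 fold change was -0.11. *Oas2*, an oligoadenylate synthetase whose product switches on RNase L, was read 52 and 123 times in the NC pair, 44 times under siRNA_210 and 28 and 6 times in the siRNA_596 pair. The log2 difference was -1.22 from 4 libraries (standard error 0.46, unadjusted *P* = 0.0252, adjusted *P* = 0.967 in edgeR) and -1.63 with all 5 (unadjusted *P* = 0.0709). Without NC replicate 2 it was -0.55 and without siRNA_596 replicate 1 it was -0.94, neither past the criteria. The *Oas* genes have close copies, which makes the value of any single member uncertain. The other 2 genes of this list with an unadjusted *P* under 0.05, named after their values were seen, were *Oasl1* (-0.73) and the helicase gene *Dhx33* (-0.31). High levels per kilobase in NC were those of *Dhx9*, an RNA helicase, at 40.0 and *Stau1* at 20.0, both above *Mavs*, with log2 fold changes of -0.12 and -0.0053.

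Of the 6 genes for other sensors of nucleic acid, *Tlr8* had no read in any library, *Tlr9* had at most 2 and *Tlr7* at most 8. The DNA sensor gene *Cgas* had 7.94 CPM per kilobase in NC, *Tmem173*, which encodes its partner STING, 4.41 and *Aim2* 2.60, with log2 fold changes of -0.21, -0.33 and 0.0012. Downstream of the sensors, 21 of 21 genes were tested and their median log2 fold change was -0.014, from -0.24 for the kinase gene *Chuk* (unadjusted *P* = 0.0274, adjusted *P* = 0.967 in edgeR, named after its value was seen) to 0.14. *Nfkbia*, *Rela* and *Mlkl* were the highest of them, at 64.6, 41.3 and 39.8 CPM per kilobase in NC. Of 8 inhibitors of the pathway, 7 were tested, with a median of -0.069, and *Dnajc3*, which encodes an inhibitor of PKR, was the highest at 24.3 CPM per kilobase, followed by *Samhd1* at 18.3 and *Cyld* at 10.1. *Trex1* had 0 counts in every library, and 100% of its 1147 exon bases also lie in exons of *Atrip* on the same strand, which had 765 to 1080 counts, so its reads cannot be told from those of *Atrip*. The PKR list of 8 genes held its target *Eif2s1*, the phosphorylated subunit of eIF2, and the kinase genes *Eif2ak1*, *Eif2ak3* and *Eif2ak4*. It also held *Ppp1r15a*, *Ppp1r15b*, *Atf4* and *Ddit3*, which encode neither its target nor a partner kinase. The median of this list was -0.010, with *Atf4* at 146, *Eif2s1* at 25.2 and *Ppp1r15b* at 24.1 CPM per kilobase in NC.

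Of interferons, 4 genes were listed and none had a read. *Ifnb1*, *Ifna4*, *Ifnl2* and *Ifnl3* had 0 counts in every library, which allows up to 3 counts, or 0.0781 to 0.114 CPM depending on the library, by counting error alone. Some targets of interferon were nonetheless present, the highest being *Isg15* at 72.4, *Cxcl10* at 17.7 and *Ifit1* at 8.13 CPM per kilobase in NC. Others were low. *Mx1* had 2 to 12 counts and was not tested, and *Rsad2* had 18 to 63, both named after their values were seen. For the 9 tested genes of this list the median was -0.48 from 4 libraries and -0.15 from all 5, and none met the criteria. *Isg15*, the 1 with an unadjusted *P* under 0.05, had 1049 and 3058 counts in NC, 1100 with siRNA_210, 1098 in siRNA_596 replicate 1 and 2732 in the library that stood apart, a log2 fold change of -0.84 with 4 libraries and 0.0043 with all 5. The 7 genes for the receptors and signalling proteins of interferon had a median of 0.028 with 4 libraries, with *Jak1* at 35.6, *Ifnar1* at 16.8 and *Ifnar2* at 10.2 CPM per kilobase in NC.

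The difference between the NC libraries was also seen in some of these lists. NC replicate 2 was over 1.5-fold above NC replicate 1 in 16 of the 72 tested genes, where it was in 7.92% of all genes tested. Of the 16, 6 were among the 9 tested genes of the list of interferons and their targets, which also holds *Il6*. Another 6 were among the 17 binders of double-stranded RNA. The ratio was 4.15 for *Ifit1*, 3.25 for *Ifit3*, 2.67 for *Isg15*, 2.35 for *Oasl2* and 1.90 for *Irf7*, which were named after their values were seen. In the downstream list it was over 1.5 for 1 of 21 genes and in the PKR list for 0 of 8. The medians of signalling downstream, of the PKR list and of the interferon receptors were below 0, at -0.064, -0.11 and -0.16. The median log2 ratio was 0.44 for the 8 sensors and 0.78 for the list of interferons and their targets, against -0.0082 for all genes tested.

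**Figure D5:**
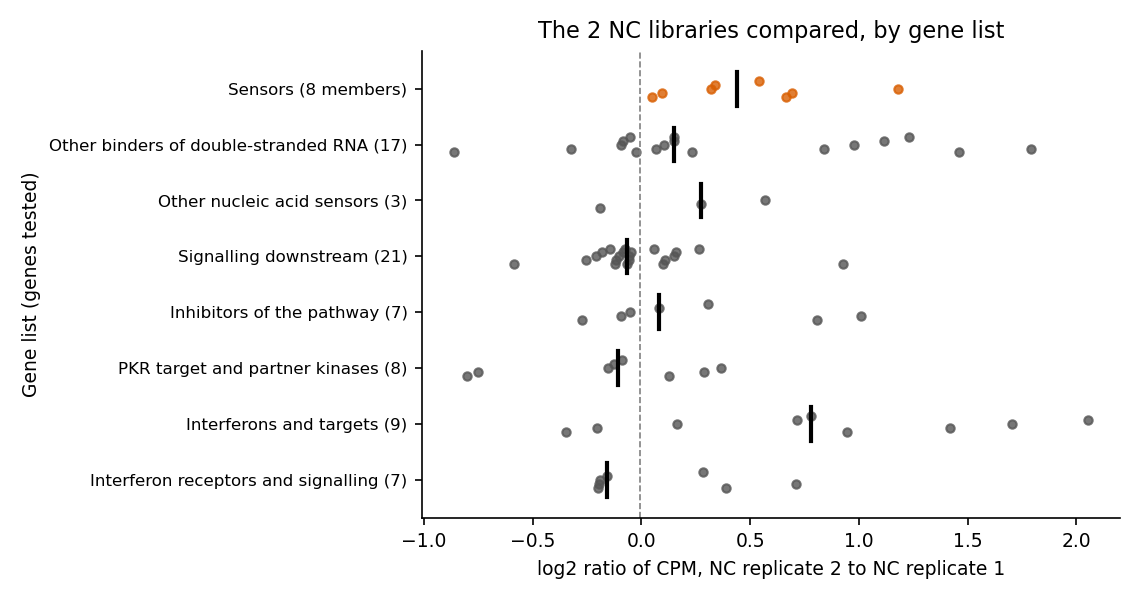
Each point is a gene's log2 ratio of CPM between NC replicate 2 and NC replicate 1, in the sensors (orange) and in 7 lists of the pathway, with black bars at the medians and a dashed line at the median of all genes. The medians are 0.44 for the sensors and 0.78 for the interferons and their targets, and -0.064 for signalling downstream.

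The genes whose pattern over the 5 libraries was most like that of each sensor were found by the root-mean-square difference of log2 CPM, each gene centred on its own mean, among 13353 genes with at least 10 counts in every library. For *Zbp1* these were *Ifit3b*, at a difference of 0.133, and *Mslnl*, at 0.165, beside the root-mean-square spread of *Zbp1* itself of 0.631. For *Dhx58* they were *Gm10241* at 0.050 and *Irf9* at 0.051 (own spread 0.240), and for *Ifih1* they were *Schip1* at 0.0819 and *Jag1* at 0.111 (own spread 0.438). *Ddx58* was nearest to *Gdpgp1*, *Eif2ak2* to *Cdc14a* and *Fcho2*, and *Adar* to *Recql* and *Map2*. *Tlr3* was nearest to *Ube3a* and *Hdac4*, and *Mavs*, whose own spread was 0.130, to *Tbck* and *Zik1*. The 5 libraries include the one that stood apart, and likeness of pattern is given as a description.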

How the data were processed

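The deposited table gives raw read counts for each gene, made by the authors without normalization. Reads were trimmed with Trimmomatic, aligned to GRCm38 with HISAT2 2.1.0, sorted with SAMtools 1.7 and counted with featureCounts 2.0.1 on the Ensembl annotation, according to the methods and the submitters' processing notes. The strand setting and the handling of reads with several matches are not given in the sources used here. The authors' table of fold changes and *P*-values from DESeq2 1.26.0 was not used. Symbols, positions and lengths came from GENCODE M21 (GRCm38), which matched 99.4% of gene identifiers.

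Genes past filterByExpr were tested, KD against NC, by the quasi-likelihood method of edgeR 4.0.16 (R 4.3.3) with TMM normalization, and *P*-values were adjusted over all genes tested by the Benjamini-Hochberg method. CPM values printed per library share 1 set of TMM factors over the 5 libraries. DESeq2 1.42.0, other scalings and filters, each library left out, a replicate block, and offsets for length and GC content were alternatives, and DESeq2 on all 5 libraries was added after the data were seen. The edgeR steps were also run on simulated counts, with no library that stood apart and no built-in difference between NC libraries. That run cannot show how the steps perform on the present libraries. The precision is set by the number of libraries, at 30660265 to 36492134 counts each.

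The members, lists and alternatives were chosen with earlier results of these data known. The genes named are the members, *Gas5*, list genes past the criteria, the 3 highest of each list per kilobase in NC, those with 3 or fewer counts in every library, and the 2 nearest to each member, except that some genes this rule names are not reported here. Plots used matplotlib 3.10.9 under Python 3.11.15.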

Additional observations from a re-analysis of the deposited data

Results flagged for a closer look

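The ratios of *Mavs* to NC had opposite signs with the 2 siRNAs, though *Mavs* did not pass the test in the KD comparison. Relative to the NC mean its log2 ratio was 0.015 with siRNA_210, and it was -0.040 and -0.32 in the siRNA_596 libraries. The siRNAs share their NC libraries, the first 2 ratios are smaller than the difference of 0.093 between the NC libraries, and the difference between siRNAs was not tested. *Mavs* was not alone in this. *Adar* was at -0.15 with siRNA_210, and at 0.031 and -1.26 in the siRNA_596 libraries. *Dhx58* and *Zbp1* were at -0.17 and -0.85 with siRNA_210, and at 0.16 and 0.29 in siRNA_596 replicate 2.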

How the results depend on the processing

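Of 112 log2 fold changes of the 8 sensors under 14 alternative fits, 101 were below 0, and 0 had an adjusted *P* under 0.05 in edgeR or DESeq2. These fits share most of their libraries, and all but the fit without NC replicate 2 kept that library. In that fit 6 of the 8 sensors were above 0. The criteria were met by 139 genes and 1 sensor (*Zbp1*) from 4 libraries in edgeR. The genes numbered 67 with DESeq2, 282 with no filter, 73 with at least 10 counts in every library, and 125 to 374 when 1 library was left out, with 0 to 1 sensors in the last case (0 without NC replicate 2 or siRNA_596 replicate 1). From all 5 libraries they numbered 57 in edgeR, 81 in DESeq2 and 50 with offsets for length and GC content, each with 0 sensors. *Zbp1* met the criteria in 7 of the 14 fits, with an adjusted *P* of 0.233 to 1.00.

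Leaving out 1 library turned 6 sensors, whose log2 fold changes ranged from -0.45 to 0.090 (*Ddx58*), -0.83 to 0.35 (*Ifih1*), -0.44 to 0.23 (*Dhx58*), -0.27 to 0.054 (*Eif2ak2*), -0.060 to 0.036 (*Mavs*) and -0.22 to 0.12 (*Adar*). *Tlr3* was 0.060 with the offsets. *Gas5* was -0.41 from 4 libraries (standard error 0.11, unadjusted *P* = 0.0038, adjusted *P* = 0.967 in edgeR). It was 0.29 from all 5 libraries in edgeR and in DESeq2, and 0.54 with the offsets. With siRNA_596 alone against NC, the replicate block gave 426 genes and the fit without it 41, with 0 sensors in both. *Dhx58* was 0.068 with the replicate block and 0.036 without, and *Gas5* 0.39 and 0.56. The deviations of siRNA_596 replicate 1 and NC replicate 1 from their group means were correlated at r = 0.0967 over 15827 genes. With 2 libraries in each group replicate 2 mirrors replicate 1, and the siRNA_596 group holds the library that stood apart. The value thus cannot show whether the numbers mark pairs, and they were not taken as pairs. The causes were not tested.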
